A study of Mus musculus with 9 samples.

Results

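The mevalonate pathway was taken as 9 enzymes in pathway order, Acat2, Hmgcs1, Mvk, Pmvk, Mvd, Idi1, Fdps, Fdft1 and Ggps1. Members were the probes that the platform annotation assigned to these symbols and that had a detection p-value under 0.05 on at least 3 of 9 arrays. Of the 9 genes, 6 had a probe under their symbol, 8 probes in all, and 5 genes with 6 probes passed the detection rule. They are 6 of the 16415 detected probes among the 45281 on the array. Mvk, Pmvk, Mvd and Idi1 had 1 detected probe each and Fdps had 2. All 6 probes were detected on all 9 arrays with a detection p of 0, whereas the 2 Ggps1 probes were detected on 0 arrays, with a lowest detection p of 0.339. Acat2, Hmgcs1 and Fdft1 were not analysed here, since no probe carried these symbols in the annotation used.

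The mRNA came from bone marrow-derived macrophages of C57Bl/6 mice, grown in medium with 15% of supernatant from L929 cells, a fibroblast line that secretes the growth factor M-CSF. The 3 groups were TRAF-STOP 6877002, TRAF-STOP 6860766 and vehicle (CTRL), each added 1 h before CD40 was activated with FGK45, an agonistic antibody (25 ug/ml, 8 h). Each group had 3 arrays of mouse 1, 2 and 3, and the labels do not say in words whether a numbered mouse is the same animal in each group. Every group received the antibody and no compound dose is given in the labels. TRAF-STOPs are small molecules made to block CD40 signalling through TRAF6, and the comparison asks what each did to gene expression after CD40 was engaged.

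The mevalonate pathway joins acetyl-CoA units into mevalonate and turns mevalonate into isoprenoids. From farnesyl diphosphate it branches to squalene and cholesterol, to ubiquinone and dolichol, and to the lipid anchors of membrane proteins. Its genes are textbook targets of SREBP2, a transcription factor released from the endoplasmic reticulum when sterols are low, which acts together with the CCAAT-binding factor NF-Y. In macrophages the pathway is also known as the target of nitrogen-containing bisphosphonates, which block Fdps.

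On the 9 arrays 33.7% to 35.2% of probes were detected, the median raw intensity was 98.7 to 112.9, and arrays of a group correlated at r = 0.991 to 0.996 across detected probes. The labels place the arrays on 4 slides. Slide 1 held 6860766 replicates 1 and 2 and vehicle replicate 1, slide 2 vehicle replicate 2, slide 3 6877002 replicates 1 and 2 and 6860766 replicate 3, and slide 4 6877002 replicate 3 and vehicle replicate 3. The main axis of variation (28.2% of the variance) separated slides 1 and 2 from slides 3 and 4, which held all 6877002 arrays. All 8 macrophage markers with a probe were detected on all 9 arrays. The 4 T cell markers with a probe were detected on none, as were 4 of 5 fibroblast, 4 of 5 dendritic cell, 3 of 4 NK cell, 3 of 5 mast cell, 2 of 3 B cell and 1 of 4 endothelial markers. Of the neutrophil list S100a8 (10.29 to 10.52 with 6877002, 10.25 to 10.53 with 6860766 and 10.33 to 10.53 with vehicle, log2) and S100a9 were detected on all 9 arrays, and so was Cd79b of the B cell list (5.95 to 6.19, 6.08 to 6.43 and 6.30 to 6.40 in the same order). Over the 8 macrophage markers the mean log2 level per array was 11.06 to 11.15 with 6877002, 10.91 to 10.92 with 6860766 and 10.99 to 11.06 with vehicle. With 6860766, 2 of the 8 fell relative to vehicle, the Fc receptor gene Fcgr1 (-0.55 ± 0.10, SE, limma adjusted p = 0.00297) and Cd40 (-0.28 ± 0.06, limma adjusted p = 0.018), while the other 6 differed by -0.11 to 0.14 on the log2 scale without passing. Likewise with 6877002 2 of the 8 rose, Fcgr1 and the receptor kinase gene Mertk. Of all 16415 detected probes 1.54% passed as lower with 6860766 and 1.68% as higher with 6877002. The part of the macrophage marker differences in the results on the pathway was not tested. In bulk RNA, fewer cells with a transcript and less of it per cell cannot be told apart.

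With 6860766, 3 of the 5 measured mevalonate enzymes fell relative to vehicle, Pmvk, Mvd and Fdps. The change on the deposited scale was -36.8% for Pmvk, -35.5% for Mvd and -38.6% for Fdps. Mvk and Idi1 were also below vehicle on average but did not pass the test. The test was limma's moderated two-sided test over all 16415 detected probes, passed at a Benjamini-Hochberg adjusted p under 0.05. In the same comparison 1.54% of all tested probes were lower, 0.865% were higher and 2.40% passed in either direction. With arrays scaled to a common median, 90 probes were lower and 106 higher, in place of 252 lower and 142 higher. The 3 mevalonate genes passed there too. The median log2 difference over all tested probes was 0.00631. The median of the 5 genes was -0.63, and none lay above 0.

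Mvk encodes mevalonate kinase, which adds the first phosphate to mevalonate. Its log2 levels were 6.29, 6.71 and 6.60 with 6877002, 6.39, 6.42 and 6.07 with 6860766, and 6.76, 6.75 and 6.86 with vehicle. Every array of either compound was below every vehicle array, while the ranges of the compounds overlapped each other. The log2 difference was -0.50 ± 0.14 (SE, n = 3 arrays per group) for 6860766 against vehicle, with a limma adjusted p of 0.0639 and a 95% confidence interval of -0.78 to -0.21. For 6877002 against vehicle it was -0.26 ± 0.14 (adjusted p = 0.376), with an interval of -0.54 to 0.026. This value was -0.138 without 6877002 replicate 1, -0.102 without mouse 2 and -0.128 with slide as a fixed block.

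Pmvk encodes phosphomevalonate kinase, which adds the next phosphate. Its log2 levels were 7.87, 7.84 and 7.96 with 6877002, 7.54, 7.46 and 7.32 with 6860766, and 7.85, 8.19 and 8.27 with vehicle. The 6860766 arrays lay apart from both other groups, whereas the 6877002 arrays overlapped vehicle replicate 1. The log2 difference was -0.66 ± 0.11 for 6860766 against vehicle (SE, n = 3 arrays per group, limma adjusted p = 0.00183). For 6877002 against vehicle it was -0.21 ± 0.11, with an adjusted p of 0.378 and an interval of -0.44 to 0.022.

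Mvd encodes mevalonate diphosphate decarboxylase, which makes isopentenyl diphosphate, the building block of all isoprenoids. Its log2 levels were 9.75, 9.69 and 10.02 with 6877002, 9.67, 9.56 and 9.58 with 6860766, and 10.23, 10.25 and 10.23 with vehicle. The vehicle arrays lay close together and no treated array reached them. Mvd fell with both compounds. The log2 difference against vehicle was -0.63 ± 0.08 for 6860766 (SE, n = 3 arrays per group, limma adjusted p = 0.00014) and -0.42 ± 0.08 for 6877002 (adjusted p = 0.00602).

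Idi1 encodes the isomerase that converts isopentenyl diphosphate into dimethylallyl diphosphate, the partner with which chain building starts. Its log2 levels were 6.29, 6.62 and 6.48 with 6877002, 5.76, 5.86 and 6.26 with 6860766, and 6.11, 5.86 and 6.60 with vehicle. The vehicle arrays alone spanned nearly the whole range, and both compounds overlapped them. The log2 difference was 0.27 ± 0.18 for 6877002 against vehicle (SE, n = 3 arrays per group, limma adjusted p = 0.48, interval -0.096 to 0.64) and -0.23 ± 0.18 for 6860766 against vehicle (adjusted p = 0.687, interval -0.60 to 0.14). With slide as a fixed block the first of these was -0.112, and with slide as a random block 0.185.

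Fdps encodes farnesyl diphosphate synthase, the enzyme at the branch point. The log2 levels of its probe with the higher mean (ILMN_1225730) were 12.47, 12.48 and 12.53 with 6877002, 12.18, 12.18 and 11.92 with 6860766, and 12.71, 12.83 and 12.84 with vehicle. The groups did not overlap at all, with 6860766 lowest, 6877002 between and vehicle highest. The log2 difference against vehicle was -0.70 ± 0.07 for 6860766 (SE, n = 3 arrays per group, limma adjusted p = 1.1e-05) and -0.30 ± 0.07 for 6877002 (adjusted p = 0.0261).

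The other Fdps probe (ILMN_1232741) was annotated to the same transcript and gave a different picture. Its log2 levels were 6.96, 6.98 and 7.01 with 6877002, 7.11, 7.07 and 6.89 with 6860766, and 7.38, 7.06 and 7.28 with vehicle. Both compounds averaged below vehicle, but 6860766 was not below 6877002. The log2 differences against vehicle were -0.22 ± 0.11 for 6860766 (limma adjusted p = 0.485) and -0.26 ± 0.11 for 6877002 (adjusted p = 0.273, SE, n = 3 arrays per group). The probes of Fdps thus disagreed on the size of the 6860766 difference and on whether the compounds differed. Which of them follows the transcript better was not tested.

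**Figure D1:**
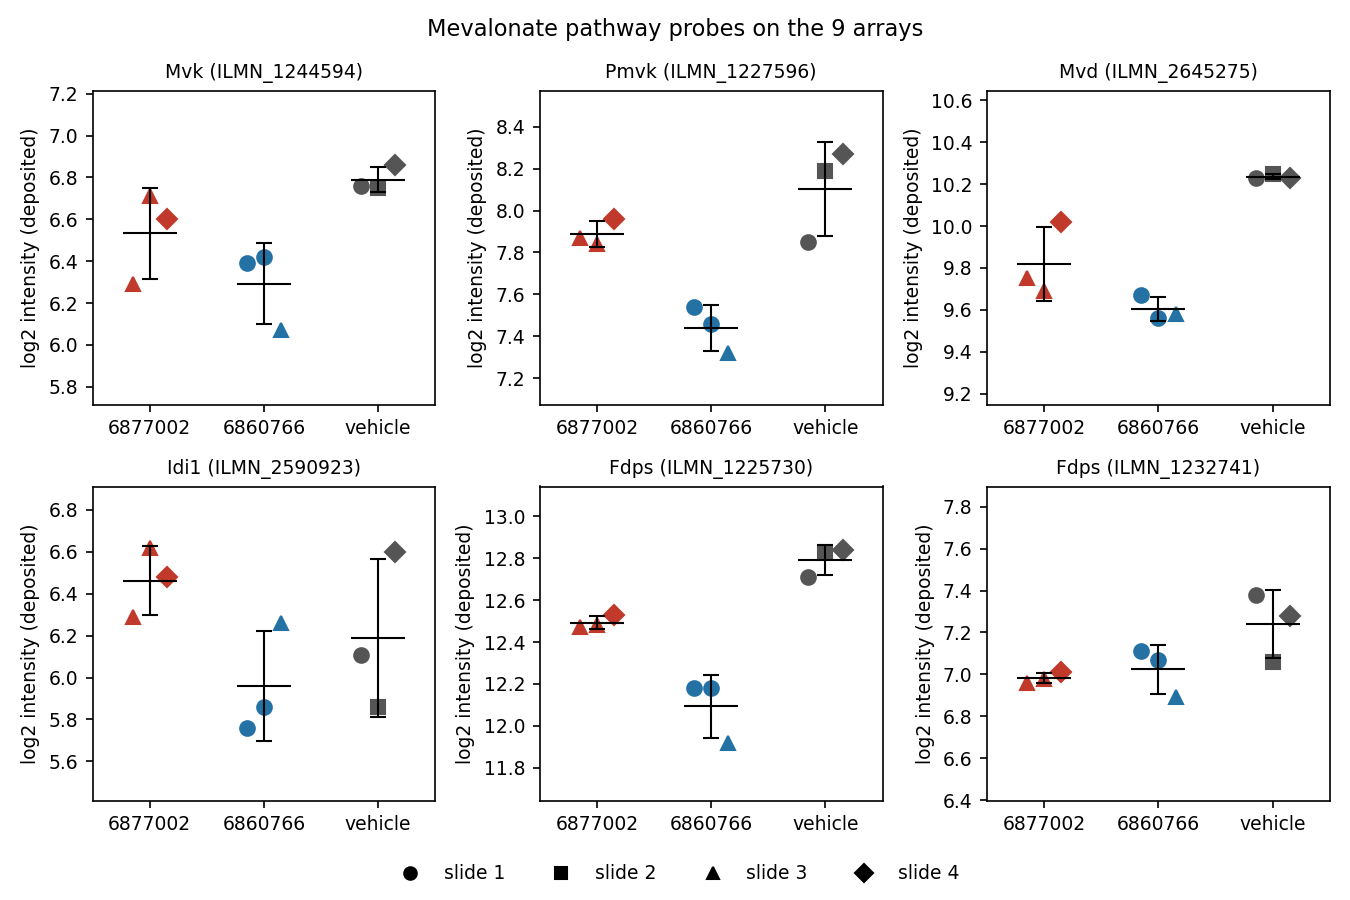
Deposited log2 intensity (vertical axis) of the 6 detected mevalonate probes on each array of the 6877002, 6860766 and vehicle groups; each point is 1 array, its shape gives the slide, and bars are mean ± SD of 3 arrays. Every panel spans the same log2 range. Fdps (ILMN_1225730), Pmvk and Mvd were lowest with 6860766, while Idi1 overlapped vehicle in both treated groups.

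With 6877002, 2 of the 5 genes fell relative to vehicle, Mvd by 25% and Fdps by 19% on the deposited scale. Mvk and Pmvk averaged below vehicle and Idi1 above it, without passing. Over all 16415 probes 0.841% were lower at this threshold, 1.68% were higher and 2.52% passed in either direction, and the median difference was -0.0113 on the log2 scale, against -0.26 for the 5 genes. The members' arrays lay apart from and below vehicle for 4 of 5 genes with 6860766 and 3 of 5 with 6877002, where 7.55% and 11.6% of all tested probes did so. No member lay apart above vehicle. With only 5 genes this is little different from the share of all probes that did, 7.35% with 6860766 and 10.7% with 6877002.

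The 3 calls for 6860766 held in all 27 other settings for Mvd and Fdps and in 26 of 27 for Pmvk, whose limma adjusted p was 0.0882 without the arrays of mouse 2. These settings used the Fdps probe with the higher mean. The other Fdps probe passed with neither compound (limma adjusted p = 0.485 with 6860766 and 0.273 with 6877002). Within slide 1, which held 2 arrays of 6860766 and 1 of vehicle, the log2 differences were -0.351 for Mvk, -0.35 for Pmvk, -0.616 for Mvd, -0.301 for Idi1 and -0.536 for Fdps. For 6877002, Mvd passed in 20 of the 27 other settings and Fdps in 16. Neither passed when 6877002 replicate 1 or 2, or mouse 1 or 2, was left out, without a variance trend, or with slide as a fixed block (log2 differences of -0.316 for Mvd and -0.181 for Fdps). Fdps alone was lost without 6877002 replicate 3, vehicle replicate 2 or vehicle replicate 3, with median scaling and with the slide set as a block, and Mvd alone on slides 3 and 4. Within slide 4, which held 1 array of each, the differences between 6877002 and vehicle were -0.262 for Mvk, -0.307 for Pmvk, -0.213 for Mvd, -0.115 for Idi1 and -0.313 for Fdps.

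**Figure D2:**
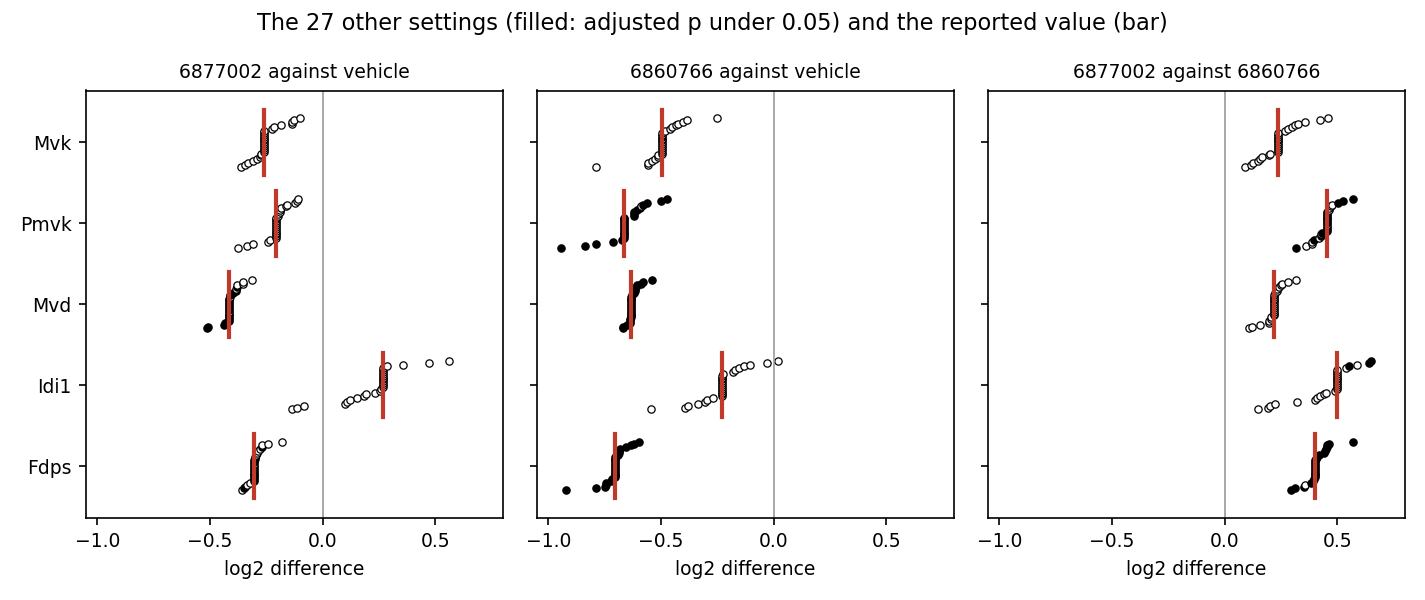
Log2 difference (horizontal axis) of each mevalonate gene in 3 comparisons; the bar is the reported value and each point is 1 of 27 other settings, filled where the adjusted p was under 0.05. Fdps and Mvd stayed filled throughout for 6860766 against vehicle, and Idi1 crossed 0 in both comparisons with vehicle.

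The compounds were then compared directly, 6877002 minus 6860766, whose doses are not given. The averages of all 5 genes with 6877002 were above those with 6860766, and 2 of them passed, Pmvk and Fdps. Over all tested probes 3.00% were higher, 0.950% were lower and 3.95% passed in either direction. Pmvk was 1.37-fold higher with 6877002 (log2 difference 0.45 ± 0.11, SE, n = 3 arrays per group, limma adjusted p = 0.0199) and Fdps 1.32-fold higher (0.40 ± 0.07, adjusted p = 0.00159). The other Fdps probe gave -0.04 ± 0.11 (limma adjusted p = 0.908). The groups lay apart for 4 of 5 genes, Mvk being the exception, and 9.11% of all probes were apart in this direction and 11.3% in the other. Idi1 was 1.42-fold higher with 6877002 (0.50 ± 0.18, adjusted p = 0.141), Mvd 1.16-fold higher (0.22 ± 0.08, adjusted p = 0.173) and Mvk 1.18-fold higher (0.24 ± 0.14, adjusted p = 0.434), none past the test. Their 95% confidence intervals on the log2 scale were 0.13 to 0.87, 0.049 to 0.39 and -0.049 to 0.52, in that order, so these 3 are not shown to respond alike. The Mvd difference was 0.12 without 6877002 replicate 3 and 0.108 without mouse 3. The Mvk difference was 0.126 without 6860766 replicate 3, 0.149 without 6877002 replicate 2, 0.092 without mouse 3, 0.358 without 6877002 replicate 1 and 0.422 without mouse 2.

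The Fdps difference between compounds passed in 25 of 27 other settings and was lost with median scaling (0.358, limma adjusted p = 0.0945) and without a variance trend (limma adjusted p = 0.0547). The Pmvk difference passed in 17 of 27 and its highest limma adjusted p was 0.182, without mouse 2. Leaving out any of the 6877002 arrays, replicate 2 of 6860766 or mouse 3, scaling to the median, dropping the trend, and slide as a fixed block or slide set as a block ended the call too. With slide as a random block it passed (0.434, limma adjusted p = 0.0223). Idi1 passed in 3 of 27 settings, among them the one without 6860766 replicate 3 (0.65, limma adjusted p = 0.0229). Its difference was 0.193 within slide 3, where Fdps was 0.553 and Pmvk 0.537.

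**Figure D3:**
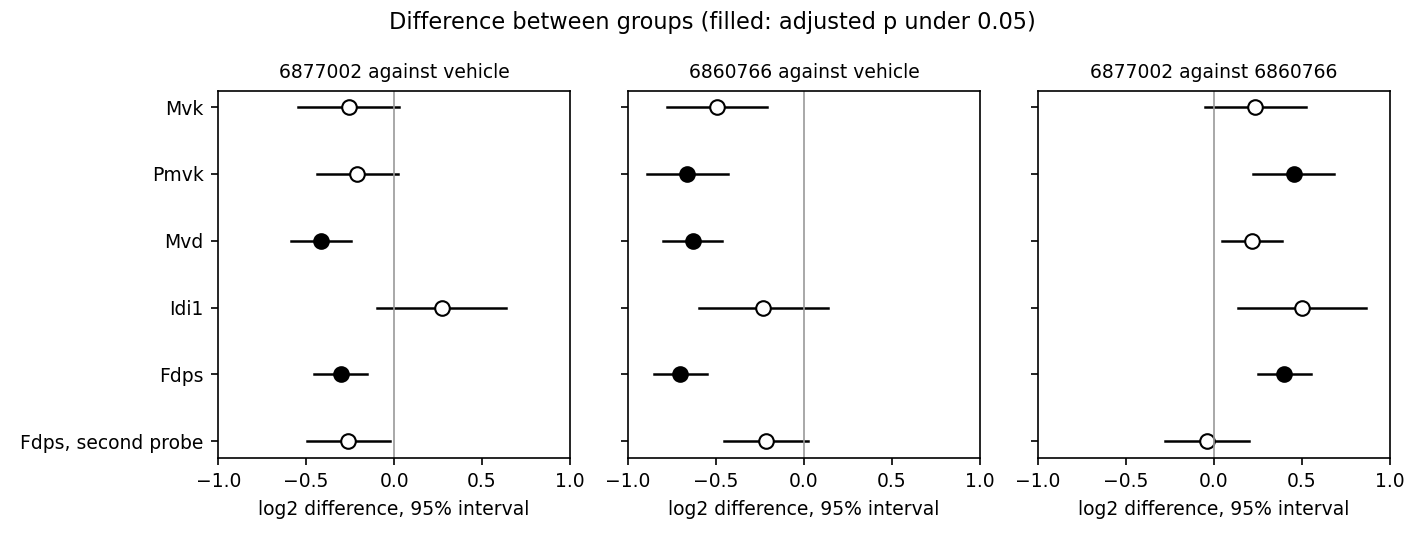
Log2 difference with its 95% confidence interval (horizontal axis) for the 6 mevalonate probes in pathway order, for each compound against vehicle and for 6877002 against 6860766; filled points passed the test. The other Fdps probe lay near 0 between the compounds, at -0.041, whereas the Fdps probe with the higher mean stood at 0.40.

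The promoters of Mvk, Pmvk, Mvd and Idi1 are shown, the measured genes with an entry in the promoter table used here. Mvk, Pmvk and Mvd averaged below vehicle with both compounds and Idi1 with 6860766. Promoter windows of RefSeq genes, from 250 bases before to 50 bases after the start on build GRCm38.p6, were matched for 7 of the 9 enzymes. Each window was searched on both strands for the CCAAT box (CCAAT, or ATTGG on the other strand), the site of NF-Y, and for the sterol regulatory element in the form TCACNCCAC. In the sequences, read 5′ to 3′ on the strand of the gene, capitals mark the CCAAT boxes of either strand.
Mvk, chr5:114444019-114444318, plus strand: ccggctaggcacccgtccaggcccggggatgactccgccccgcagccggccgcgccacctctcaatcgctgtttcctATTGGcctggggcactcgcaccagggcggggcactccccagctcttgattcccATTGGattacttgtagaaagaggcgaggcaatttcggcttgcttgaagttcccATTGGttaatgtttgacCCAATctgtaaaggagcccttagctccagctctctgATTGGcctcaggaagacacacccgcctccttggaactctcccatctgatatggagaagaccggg
Pmvk, chr3:89454291-89454590, plus strand: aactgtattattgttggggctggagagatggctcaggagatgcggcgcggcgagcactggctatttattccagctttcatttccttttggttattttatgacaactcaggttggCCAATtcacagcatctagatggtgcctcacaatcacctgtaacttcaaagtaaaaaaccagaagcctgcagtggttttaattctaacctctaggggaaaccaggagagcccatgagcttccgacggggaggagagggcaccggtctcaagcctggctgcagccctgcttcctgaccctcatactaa
Mvd, chr8:122443373-122443672, minus strand: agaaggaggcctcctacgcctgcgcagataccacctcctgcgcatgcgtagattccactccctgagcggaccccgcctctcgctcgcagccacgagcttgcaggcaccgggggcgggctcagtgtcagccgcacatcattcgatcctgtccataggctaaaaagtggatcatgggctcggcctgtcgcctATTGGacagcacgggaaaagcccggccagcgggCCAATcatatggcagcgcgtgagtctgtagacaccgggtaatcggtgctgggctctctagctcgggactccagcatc
Idi1, chr13:8885356-8885655, plus strand: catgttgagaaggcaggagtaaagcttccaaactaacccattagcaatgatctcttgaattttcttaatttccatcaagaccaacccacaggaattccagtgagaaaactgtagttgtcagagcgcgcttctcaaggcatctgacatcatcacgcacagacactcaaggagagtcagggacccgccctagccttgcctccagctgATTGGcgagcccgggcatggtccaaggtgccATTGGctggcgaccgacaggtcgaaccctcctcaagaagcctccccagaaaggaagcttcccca
The Mvk window held 5 CCAAT boxes, a number that 0.271% of all 32851 windows reached, and the Mvd and Idi1 windows held 2 each, which 11.7% of windows reached. The Pmvk window at this start held 1, the window of another Pmvk start (chr3:89459321-89459620) held 0, and 37.4% of all windows held at least 1. The form TCACNCCAC stood in 1.24% of windows and in none of the 4 printed ones. The window of Hmgcs1, a gene not measured here, held 1 such site and 4 CCAAT boxes. The Acat2 and Ggps1 windows held 0 such sites, with 0 and 3 CCAAT boxes, and the other Pmvk window held 0 such sites. Whether the number of CCAAT boxes goes with the differences in expression was not tested.

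The Mvk window shares 259 bases with that of Mmab, a gene of vitamin B12 metabolism that is read in the opposite direction. Mmab was looked at after its values were seen. It had 4 tested probes, of which 0 passed limma's test for 6860766 against vehicle and 0 had an unadjusted p under 0.05, with log2 differences of -0.37 to 0.020. The corresponding Mvk difference was -0.50 and did not pass either, and the difference between the neighbours was not tested.

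The enzymes after the mevalonate branch point, from squalene to cholesterol, included 6 that fell with 6860766. Of 12 listed genes 11 were tested. With 6877002, 2 of the 11 fell relative to vehicle, where 0.841% of all tested probes did, and the median log2 difference was -0.254. With 6860766, 6 of the 11 fell, Lss, Hsd17b7, Nsdhl, Cyp51, Sqle and Msmo1, and the median was -0.32. In that comparison 1.54% of all tested probes were lower. With 6877002 the genes that fell were Lss and Hsd17b7. Lss, which closes squalene epoxide into lanosterol, had log2 levels of 9.93, 9.98 and 10.15 with 6877002, 9.63, 9.75 and 9.65 with 6860766, and 10.34, 10.47 and 10.52 with vehicle. The 3 groups did not overlap. Its log2 difference against vehicle was -0.77 ± 0.08 with 6860766 (SE, n = 3 arrays per group, limma adjusted p = 1e-05) and -0.42 ± 0.08 with 6877002 (adjusted p = 0.00324). Lss had another probe that did not pass with 6860766, Sqle passed by 1 of 2 probes and Nsdhl by 4 of 4. The log2 difference of Nsdhl, a sterol dehydrogenase, from vehicle was -0.82 ± 0.11 with 6860766 (limma adjusted p = 0.000293) and -0.39 ± 0.11 with 6877002 (adjusted p = 0.0709). Between the compounds 3 of the 11 differed, all higher with 6877002, where 3.00% of all tested probes were higher. Hsd17b7, a ketosteroid reductase, was 0.37 ± 0.08 higher on the log2 scale with 6877002 than with 6860766 (SE, n = 3 arrays per group, limma adjusted p = 0.0142). Lss was 0.34 ± 0.08 higher (adjusted p = 0.0109) and Nsdhl 0.43 ± 0.11 higher (adjusted p = 0.0342). Sqle, the squalene epoxidase, Cyp51, the lanosterol demethylase, and Msmo1, the methyl sterol oxidase, were 0.23 ± 0.07, 0.34 ± 0.10 and 0.22 ± 0.07 higher with 6877002 and did not pass (adjusted p = 0.0675, 0.0565 and 0.0943).

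Among genes that control SREBP2 or take up sterol no call was made. Of 10 tested, 0 passed limma's test with either compound against vehicle, while 4 with 6877002 and 3 with 6860766 had an unadjusted p under 0.05. Of all 16415 tested probes 2551 and 1946 had such a p, in the same order. The median log2 difference was -0.066 with 6877002 and 0.081 with 6860766. Srebf2, which encodes SREBP2, differed from vehicle by -0.21 ± 0.09 with 6877002 (adjusted p = 0.288) and by -0.31 ± 0.09 with 6860766 (SE, n = 3 arrays per group, limma adjusted p = 0.111). Insig1 encodes the protein that holds the SREBP complex in the endoplasmic reticulum and is itself a known SREBP target, and its 3 tested probes disagreed. The probe with the highest mean differed by -0.21 ± 0.14 with 6860766 and did not pass (limma adjusted p = 0.62), whereas the other 2 probes fell by 0.52 each on the log2 scale (limma adjusted p = 0.0307 and 0.0067). Insig1 counts as not passed in the list by the rule that the brightest probe stands for a gene.

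Genes of isoprenoid use and protein prenylation, such as prenyltransferases and the ubiquinone and dolichol enzymes, held 1 gene that changed against vehicle. Of 14 tested, 1 passed with 6877002 and 0 with 6860766, where 2.52% and 2.40% of all tested probes passed in either direction. In the same order 3 and 2 had an unadjusted limma p under 0.05, and of all 16415 probes 2551 and 1946 did. The medians were -0.062 and 0.096 on the log2 scale. The gene that passed was Coq2, the prenyltransferase of ubiquinone synthesis. Its log2 levels were 9.54, 9.54 and 9.59 with 6877002, 9.20, 9.43 and 9.55 with 6860766, and 9.08, 9.26 and 9.23 with vehicle. Coq2 rose by 0.37 ± 0.09 with 6877002 (SE, n = 3 arrays per group, limma adjusted p = 0.0255). No 6877002 array overlapped vehicle, and 10.7% of all tested probes lay apart above vehicle in this way. With 6860766 it differed from vehicle in the same direction, by 0.20 ± 0.09, without passing (limma adjusted p = 0.343). The difference between the compounds, 0.17 ± 0.09, did not pass either (limma adjusted p = 0.37).

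**Figure D4:**
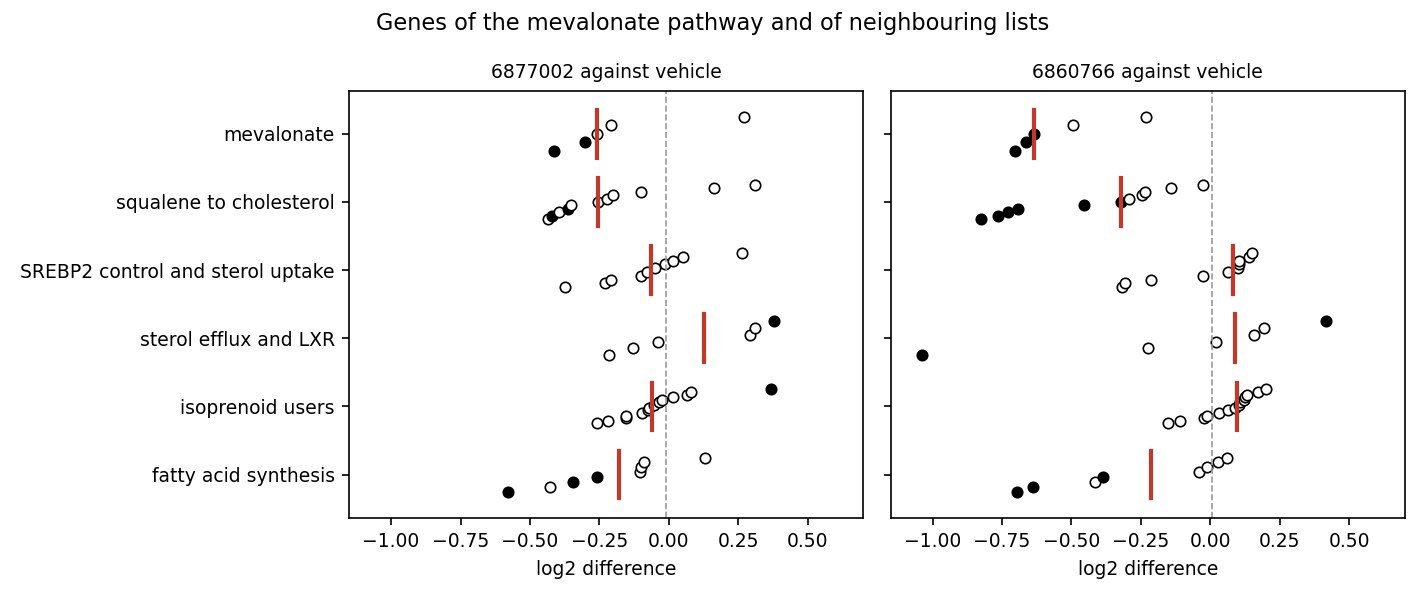
Log2 difference against vehicle (horizontal axis) of each tested gene in 6 lists, for 6877002 and for 6860766; filled points passed the test, the bar is the list's median and the dashed line the median of all 16415 probes. The mevalonate and squalene lists have medians of -0.259 and -0.254 with 6877002 and -0.633 and -0.32 with 6860766.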

How the data were processed

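Biotin-labelled cRNA from 9 macrophage cultures was hybridised to Illumina mouse BeadChips. The deposited intensity values are bead summaries not normalised between arrays, per the file headers and the name of the table, and the submitters' processing notes name GenomeStudio 2011.1. The deposited detection p-value is given beside each intensity, per the file headers. For the deposited log2 values the submitters' processing notes list limma 3.22.7 in R 3.1.3, and the function is not given in the sources used here. They differed by at most 0.017 from limma's neqc run on the intensities (normexp background correction, an offset of 16, quantile normalisation), so log2 differences of dim probes are understated.

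The deposited log2 values of the 16415 detected probes entered one fit in R 4.3.3 with limma 3.58.1 (lmFit, then eBayes with trend), with 3 groups of 3 arrays and no covariate. Each pair of groups was tested two-sided with Benjamini-Hochberg adjustment over all 16415 probes, and differences are the group named first minus the one named after it. The probe with the highest mean stood for a gene. The annotation gave 34885 probes 1 symbol, 18 several and 10378 none. Named genes were the members, the genes of the other lists past the test in any comparison (at most 6 a list, by lowest adjusted p) and the 5 genes most like the members over the arrays. Srebf2, Insig1, Mmab and the cell type markers named with values fall outside this rule and were chosen after their values were seen. The members and lists were chosen with earlier results of these data known. The fit was tested on simulated data. Motifs and promoters came from RefSeq (GRCm38.p6). The precision is limited by 3 arrays per group, and the effect of normalisation, filters, mouse and slide blocks and left-out arrays is given at the end.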

Additional observations from a re-analysis of the deposited data

How the results depend on the processing

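For 6877002 against vehicle the reported count was 2 mevalonate genes. It was 1 with median scaling, 1 with the slide set (slides 1 and 2 against 3 and 4, chosen after seeing the data) as a block, 1 on slides 3 and 4 alone (also chosen after), 0 without a variance trend and 0 with slide as a fixed block; over left-out arrays and mice it ran from 0 to 2. For 6860766 against vehicle the count was 3, from 2 to 3 over left-out arrays and mice, and 4 with the slide set as a block, where Mvk passed. For 6877002 against 6860766 the count was 2, with 0 under median scaling, 0 without a trend, 1 with slide as a fixed block, 1 with the slide set as a block, and 1 to 3 over left-out arrays and mice. Why these counts moved was not tested. Idi1 changed sign for 6877002 against vehicle on slides 3 and 4 alone (-0.135) and under the fixed block of slide (-0.112) or slide set (-0.081), while slide as a random block gave 0.185. For 6860766 against vehicle Idi1 ran from -0.543 to 0.02 over left-out arrays and mice, reaching 0.02 without mouse 2. The other Fdps probe reversed the difference between compounds (-0.041).

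Same-numbered mice did not deviate together (residual r of -0.14 to 0.15 over 9 pairs, and 2 of 9 arrays correlated best with their own number), so the numbers were not taken as pairs. With the mouse number as a replicate block the counts were 2, 3 and 2 mevalonate genes and 406, 395 and 605 of all probes, against 414, 394 and 649 without it; with the title number as a replicate block they were 2, 3 and 2 and 464, 409 and 661. Over all probes, median scaling gave 257, 196 and 382 calls, with 90 lower and 106 higher for 6860766 against vehicle in place of 252 and 142. The fit without a trend gave 159, 72 and 375, array weights 757, 444 and 1420, and the 6 arrays compared alone 756, 239 and 609. On slides 3 and 4 alone they were 244, 141 and 439, with the slide set as a block 229, 568 and 469, and over left-out arrays and mice 153 to 769, 108 to 568 and 243 to 1361.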

Other observations

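Fatty acid synthesis and desaturation genes, which the related factor SREBP1 controls, include 3 that passed with each compound. Of 8 tested, 3 fell with 6877002 and 3 with 6860766, and these were Scd1, Acly and Fads2 in both. Of all tested probes 0.841% and 1.54% were lower, in the same order. Scd1, the stearoyl-CoA desaturase, had log2 levels of 8.74, 8.90 and 8.85 with 6877002, 8.55, 8.54 and 8.53 with 6860766, and 9.20, 9.27 and 9.06 with vehicle. It was the one gene of this list that differed between the compounds (0.29 ± 0.08 higher with 6877002, SE, n = 3 arrays per group, limma adjusted p = 0.0483). Acly, which makes the cytosolic acetyl-CoA used by both pathways, differed from vehicle by -0.26 ± 0.07 with 6877002 (adjusted p = 0.042) and by -0.38 ± 0.07 with 6860766 (limma adjusted p = 0.00246). Fads2, a fatty acid desaturase, differed by -0.58 ± 0.13 with 6877002 (adjusted p = 0.0229) and by -0.70 ± 0.13 with 6860766 (limma adjusted p = 0.00596). Of the 2 tested genes of ketone body synthesis and other mitochondrial relatives, 0 passed limma's test in any comparison. At an unadjusted limma p under 0.05 there were 0, 1 and 1 for 6877002 and 6860766 against vehicle and between the compounds. Of all 16415 probes 2551, 1946 and 2592 had such a p, in that order.

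Of 9 listed genes of sterol efflux and LXR signalling 6 were tested, and Nceh1, a cholesterol ester hydrolase, was higher with both compounds. Of the 6, 1 was higher with 6877002, and 1 was higher and 1 lower with 6860766. Of all tested probes 1.68% were higher with 6877002, and 0.865% higher and 1.54% lower with 6860766. Nceh1 rose by 0.38 ± 0.07 with 6877002 (limma adjusted p = 0.0026) and by 0.42 ± 0.07 with 6860766 (adjusted p = 0.00138, SE, n = 3 arrays per group). Another member is Ch25h, the enzyme of 25-hydroxycholesterol, a sterol known to hold back SREBP processing. Ch25h had log2 levels of 7.26, 7.47 and 7.46 with 6877002, 6.04, 5.95 and 6.15 with 6860766, and 7.01, 7.20 and 7.06 with vehicle. Ch25h fell by 1.04 ± 0.12 with 6860766 relative to vehicle (SE, n = 3 arrays per group, limma adjusted p = 3.08e-05), and with 6877002 it differed by 0.31 ± 0.12 (adjusted p = 0.181). Between the compounds it was 1.35 ± 0.12 higher with 6877002 (limma adjusted p = 2.69e-07), where 3.00% of all tested probes were higher.

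Each symbol taken by its closest probe, the 5 genes whose log2 values followed the mean of the 5 mevalonate genes most closely over the 9 arrays, among 9076 symbols, were Ovol2 (r = 0.957), Hsd17b7 (0.955), Nsdhl (0.954), Msmo1 (0.952) and Lss (0.951). The arrays share groups and slides, so this r is a description of the group pattern. Of the 20 closest genes, 5 were on the squalene to cholesterol list, which had 11 tested genes among the 9076 symbols. A symbol with several probes, such as Nsdhl with 4, had more chances to come close.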
